A study of Rattus norvegicus with 61 samples.

Results

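Of the 31196 transcripts in the rat immune cell table, 79 were highest in one of the T cell types among the sorted cells, 59 in CD4 T and 20 in CD8 T cells. They are called the CD4 transcripts and the CD8 transcripts here. Levels are in CPM, the deposited value divided by the total of its sample and multiplied by 1000000. A transcript was taken when its mean over the 15 livers was under 1 CPM, its highest mean over the 6 sorted cell types was that of CD4 T or CD8 T cells and was at least 2 CPM, and this mean plus 1 was more than 1.5 times the next highest sorted mean plus 1. The levels in the sorted cells chose the transcripts and are therefore given as a description, with no test. Spleen and whole blood cells had no part in the choice. Of the livers only the mean over all 15 was used. Since this mean includes the treated livers, the limit also drops transcripts that rose strongly after treatment.

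The samples came from male Sprague-Dawley WT rats, which were 6 weeks old at purchase. Antibody sorting of untreated rats gave 6 samples of each cell type. From spleen, CD45+ CD11b- cells were gated as CD3+ with CD4 for CD4 T cells, CD3+ with CD8a for CD8 T cells, CD3- with CD161 for natural killer (NK) cells, and CD3- with CD45RA for B cells. Neutrophils and monocytes were CD11b+ cells of the blood. The unsorted samples of untreated rats were 5 spleen cell suspensions and 5 samples of whole blood cells (WBC), both after lysis of red cells. The 15 livers were perfused and taken 24 h after gavage of fasted rats, 5 each given 0.5% methylcellulose (Ctrl), acetaminophen at 3 g/kg (APAP) or 4,4′-methylene dianiline at 300 mg/kg (MDA), and both compounds injure the liver. The labels do not say which samples shared an animal.

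T cells carry the CD3 complex with an antigen receptor. CD4 T cells recognise peptides on MHC class II and mainly help other immune cells through cytokines and co-stimulation, whereas CD8 T cells recognise peptides on MHC class I and can kill the presenting cell. Both arise in the thymus from common precursors and share most of their transcripts, and the spleen and blood hold them beside B cells, NK cells and myeloid cells. The deposited table lists transcripts by Ensembl identifier only, and 0 of 31196 identifiers matched the gene table of 47357 rat genes. The transcripts are therefore given without gene names, roles or sequences, and the sorted populations could not be checked against Cd4, Cd8a or other defining genes.

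Totals ran from 3429971 to 14146402 estimated counts over the 61 samples and from 9993834 to 13282944 over the 12 T cell libraries. The T cell libraries of replicate 5 stood apart. CD8 T replicate 5 had a median correlation of 0.959 with the other CD8 T libraries (log2(CPM + 1), across transcripts) but was closest to NK replicate 5 (r = 0.981). CD4 T replicate 5 had 0.960 with its own group and was closest to CD8 T replicate 5 (r = 0.981). Closeness to another type was not particular to replicate 5. CD4 T replicates 1, 2, 4 and 6 and CD8 T replicates 2, 3 and 6 were also closest to a library of the other T cell type. The 219 transcripts that the same rule placed in B cells summed to 16650 to 24182 CPM in the B cell libraries. In CD4 T replicates 1 to 6 this B cell sum was 5413, 5558, 9113, 9982, 14600 and 9414 CPM. In the CD8 T libraries, in the same order, it was 5900, 5567, 9023, 7229, 16130 and 7240 CPM. It was highest in replicate 5 of both T cell types and, at 15524 CPM, of NK cells. NK replicate 5 was itself unlike its group. The 190 transcripts that the same rule placed in NK cells summed to 2309 CPM there, against 5130 to 13268 CPM in the other NK libraries. In the T cell libraries these 190 transcripts summed to 1622 CPM in CD4 T replicate 5 (1190 to 1342 in the others). In CD8 T replicate 5 they summed to 1932 CPM (1469 to 1884). The 225 transcripts of monocytes summed to 1146 CPM (580 to 834) and 1201 CPM (640 to 1004) in the same libraries. The 303 of neutrophils were highest in CD4 T replicate 5, at 1886 CPM (1423 to 1718). In CD8 T replicate 5 they were not, at 1863 CPM against 1893 CPM in CD8 T replicate 3.

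The T cell transcripts moved the other way. The CD4 transcripts together reached 1287, 1066, 972, 701, 582 and 898 CPM in CD4 T replicates 1 to 6, lowest in replicate 5. Of the 59 CD4 transcripts, 29 were highest in replicate 1 among the CD4 T libraries and 35 were lowest in replicate 5. The CD8 transcripts summed to 453, 540, 355, 403, 169 and 329 CPM in CD8 T replicates 1 to 6, with 13 of 20 lowest in replicate 5. Both sums are of lists chosen on these libraries, and the part of RNA from other cell types in the spread was not tested.

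**Figure D1:**
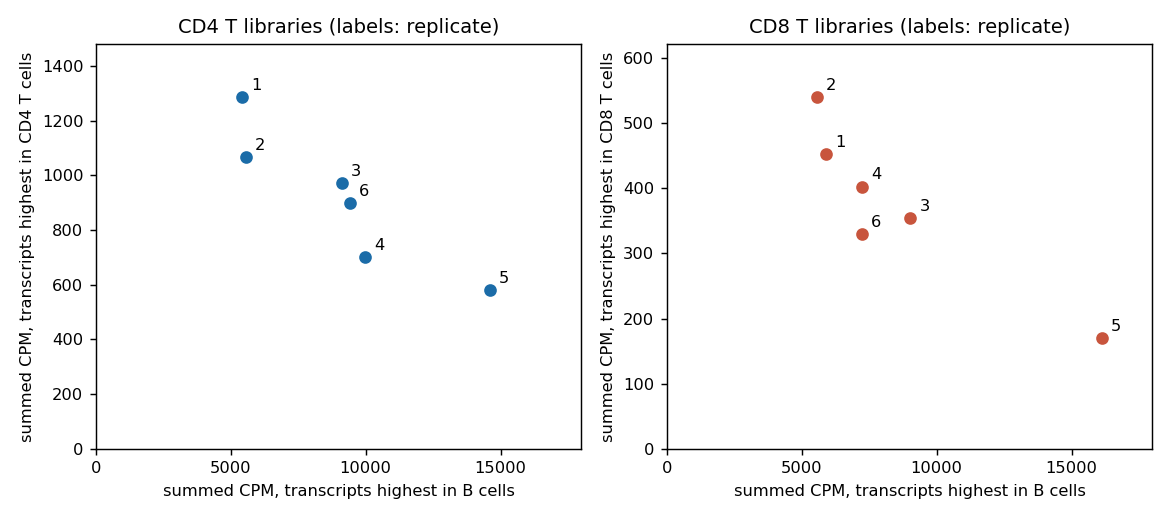
Each point is a T cell library, numbered by replicate, with the summed CPM of the 219 transcripts highest in B cells on the x axis and the summed CPM of the T cell type's own transcripts on the y axis (left, 59 transcripts in 6 CD4 T libraries; right, 20 transcripts in 6 CD8 T libraries). In both panels replicate 5 lies at the lower right, with B cell sums of 14600 and 16130 CPM and T cell sums of 582 and 169 CPM.

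Few transcripts met the rule for a T cell type. Those at similar high levels in CD4 T and CD8 T cells cannot meet it, since each type is then next to the other. The counts therefore do not show how many transcripts set T cells as a whole apart from the rest. The same rule gave 303 transcripts for neutrophils, 225 for monocytes, 219 for B cells and 190 for NK cells, so that CD4 T and CD8 T cells held 79 of 1016. Before the fold limit, 512 transcripts were highest in CD4 T cells within the liver and level limits, beside 543 in NK cells and 517 in B cells. The fold limit set the types apart, since 11.5% of the 512 and 7.09% of the 282 in CD8 T cells passed it, against 35.0% in NK cells, 42.4% in B cells, 47.8% in monocytes and 64.1% in neutrophils. The neighbour that took second place differed between the sets. CD8 T cells were next highest for 40 of the 59 CD4 transcripts, whereas CD4 T cells were next for 9 of the 20 CD8 transcripts, with NK cells next for 5, B cells for 3, monocytes for 2 and neutrophils for 1.

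Most of the transcripts were modest in level and in fold. Mean CPM in the own T cell type ran from 2.02 to 147 for the CD4 transcripts (median 7.30) and from 2.10 to 180 for the CD8 transcripts (median 7.90). Under 5 CPM lay 19 CD4 and 6 CD8 transcripts, and 11 CD4 and 2 CD8 transcripts had 20 CPM or more. The fold over the next type, with 1 CPM added to both, had a median of 1.80 in the CD4 and 1.86 in the CD8 set. It passed 2 for 21 CD4 and 7 CD8 transcripts, and 3 for 4 and 3. At the fold limit, the CD4 transcript just outside had 1.497 and the one just inside 1.502, and the CD8 neighbours had 1.499 and 1.505. At the level limit the values were 1.98 and 2.02 CPM for CD4 and 1.99 and 2.10 CPM for CD8, and at the liver limit the means just inside and outside were 0.884 and 1.04 CPM for CD4 and 0.524 and 1.23 CPM for CD8. The CD8 neighbour outside the liver limit was abundant, at 854 CPM in CD8 T and 430 CPM in NK cells.

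**Figure D2:**
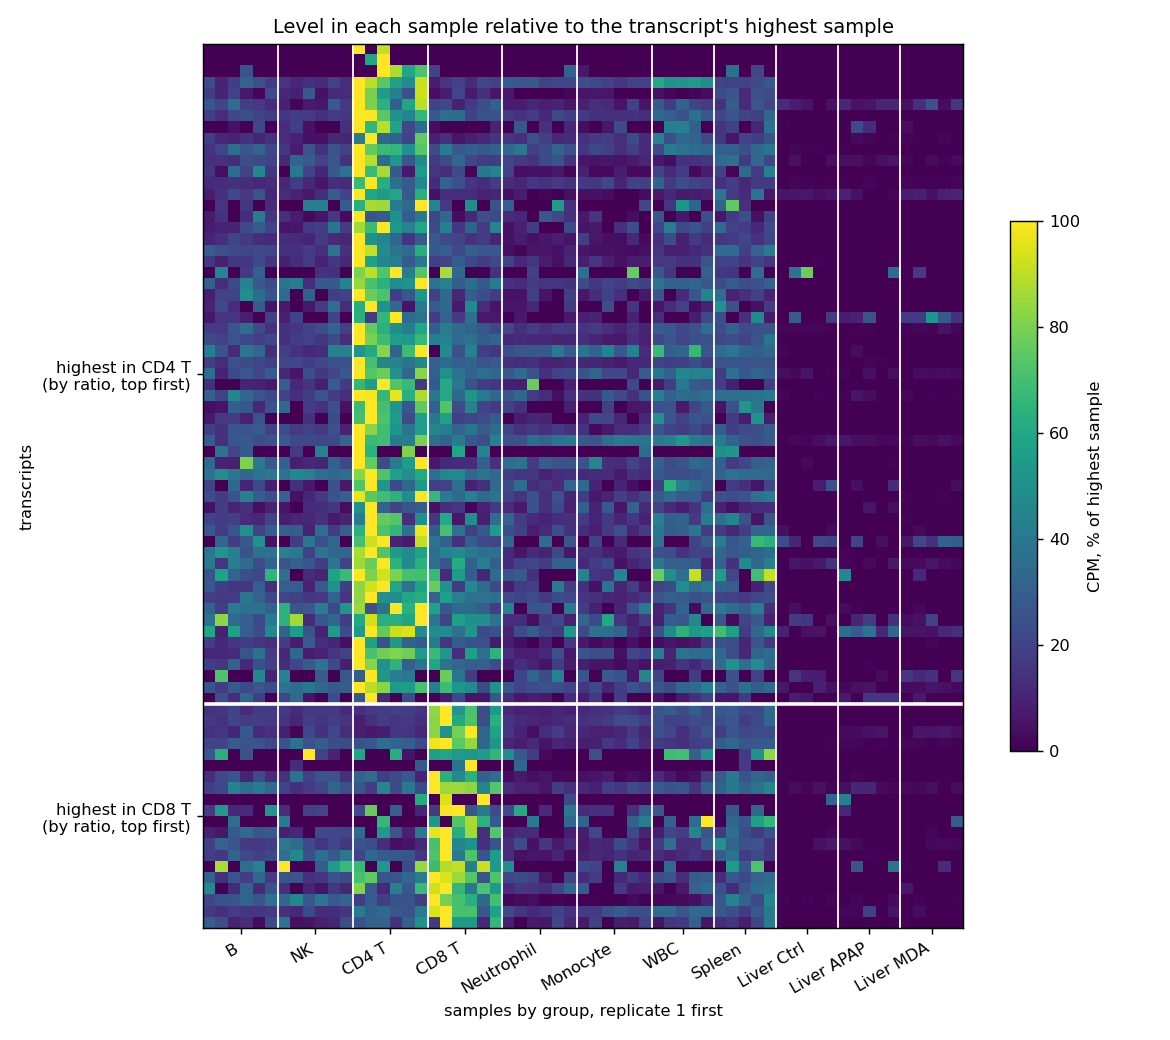
Rows are the 79 transcripts (59 highest in CD4 T cells above the white line, 20 highest in CD8 T cells below it, each by falling fold over the next type), columns are the 61 samples in 11 groups, and colour is the CPM as a percentage of the transcript's highest sample. The brightest cells lie in the transcript's own T cell type with replicate 5 darker there, most rows keep a lower level in the other sorted cells, spleen and WBC, and the livers are mostly dark.

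Over all 11 groups the summed level of the CD4 transcripts fell from its own cells to CD8 T cells and then to the other lymphocytes. The sum had a median of 935 CPM in CD4 T cells (lowest 582, highest 1287), 423 CPM in CD8 T cells (365 to 521), 300.0 CPM in B cells (246 to 382) and 274 CPM in NK cells (238 to 336). Neutrophils had 214 CPM (179 to 239) and monocytes 183 CPM (159 to 206). The ranges of CD8 T and B cells overlapped, as did those of B and NK cells, and those of neutrophils and monocytes, while every CD8 T library lay above every NK library.

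The CD8 transcripts showed no such step in the other T cell type when all were summed, an abundant transcript making up much of each sum. Their sum had a median of 379 CPM in CD8 T cells (169 to 540), and 113 CPM in CD4 T cells (107 to 118), 103 CPM in B cells (102 to 116) and 104 CPM in NK cells (83.6 to 112), 3 overlapping ranges. Monocytes had 81.0 CPM (72.7 to 103) and neutrophils 64.3 CPM (49.8 to 86.7). No CD8 T library overlapped another cell type, replicate 5 included. The ratio of the CD4 sum to the CD8 sum was 5.44 to 11.4 in the CD4 T libraries and 0.964 to 2.16 in the CD8 T libraries, the highest of the latter being replicate 5.

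A floor was present in cells of other lineages. At a mean of 1 CPM or more, 40 of 59 CD4 and 11 of 20 CD8 transcripts were listed in neutrophils, 38 and 13 in monocytes, 44 and 15 in B cells and 41 and 15 in NK cells. In the other T cell type the counts were 49 and 16. Thus a majority of the transcripts of both sets had a level in sorted cells that the gates had set apart from T cells.

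**Figure D3:**
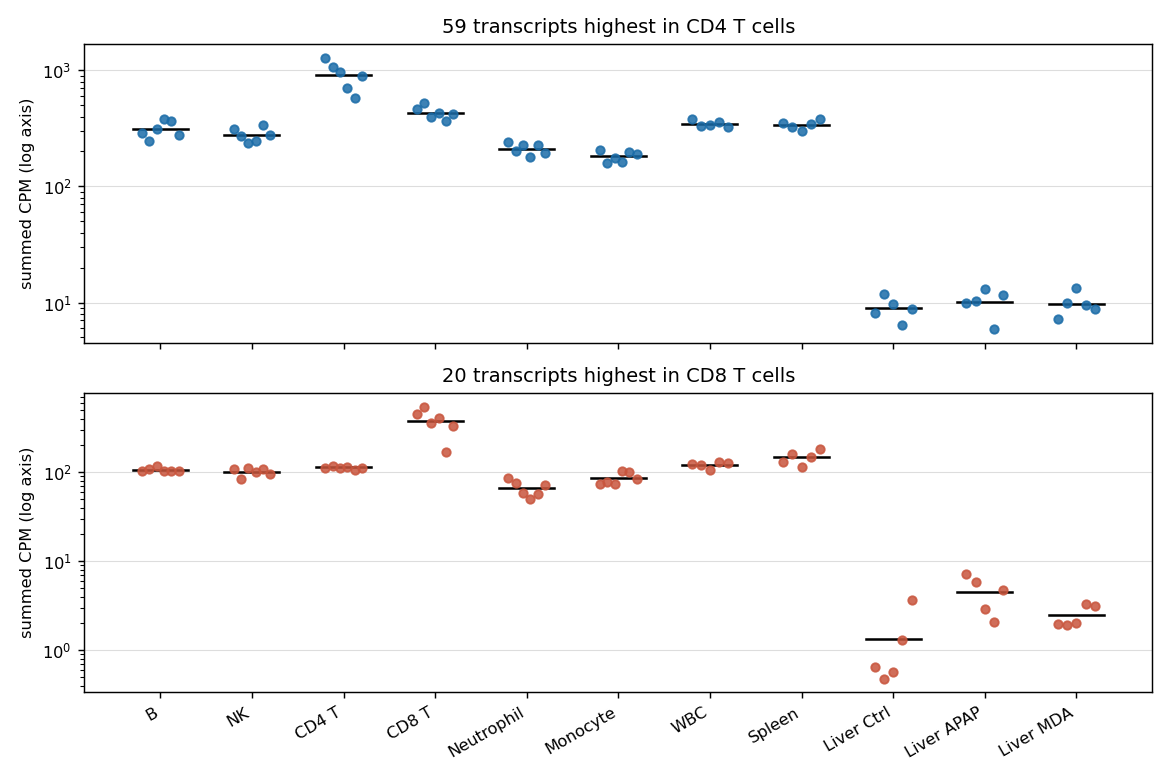
Points are samples and black lines group means of the summed CPM (log axis) of the 59 transcripts highest in CD4 T cells (top) and the 20 highest in CD8 T cells (bottom), by group in replicate order. CD4 T libraries lie between 582 and 1287 CPM in the top panel and CD8 T libraries between 169 and 540 CPM in the bottom panel, with CD8 T replicate 5 the lowest of its group.

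The CD4 transcript with the largest fold rested on 2 libraries. ENSRNOT00000092810 was at 94.7 CPM in CD4 T replicate 1 and 86.1 CPM in replicate 3, and was listed at 0 in the other 4 CD4 T libraries and in every other sample. ENSRNOT00000072151, next by fold, was at 5.43 CPM in CD4 T replicate 2 and 9.08 CPM in replicate 3 and at 0 elsewhere. For both, a cell type mean describes no typical library. In all, 6 CD4 and 3 CD8 transcripts were at 0 in at least 1 library of their own cell type, and for 3 CD4 and 2 CD8 transcripts a single library held over 50% of the own type's sum.

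ENSRNOT00000001162 was the CD4 transcript with the largest fold among those above 0 in all 6 CD4 T libraries, at 3.01, and was chosen for this after its values were seen. Its lowest, median and highest CPM were 32.8, 55.5 and 67.5 in CD4 T cells and 5.07, 11.7 and 14.5 in CD8 T cells. Neutrophils were the next type by mean, with 13.4, 16.6 and 19.6 CPM, while the highest B cell library had 21.5 CPM. The CD4 T libraries thus lay above all other sorted libraries, but their range overlapped that of WBC (33.3 to 41.3 CPM). Its median was 14.0 CPM in B cells, 8.93 CPM in NK cells and 13.6 CPM in monocytes. It was at 0 in all APAP and MDA livers and above 0 in 2 of 5 Ctrl livers.

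The most abundant CD4 transcript, ENSRNOT00000067597, singled out for its level after its values were seen, made up 16.0% of the CD4 sum in CD4 T cells. Its lowest, median and highest CPM were 85.8, 139 and 221 in CD4 T cells and 63.2, 81.9 and 101 in CD8 T cells. The ranges overlap, but CD4 T was above CD8 T in each of the 6 pairs of libraries with the same replicate number. Medians elsewhere were 50.8 CPM in B cells, 40.4 CPM in NK cells, 35.1 CPM in neutrophils and 29.3 CPM in monocytes. It was thus graded across the sorted types rather than present in one of them.

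Among the CD8 transcripts the largest folds belonged to transcripts found in every CD8 T library. ENSRNOT00000008269 (fold 3.61) had a lowest, median and highest CPM of 20.4, 54.5 and 86.3 in CD8 T cells. CD4 T cells held 11.5, 15.1 and 16.9 CPM and B cells 10.7, 14.3 and 17.7 CPM. All CD8 T libraries lay above all other sorted libraries, while CD4 T, B, NK (median 14.3 CPM) and monocyte (median 12.3 CPM) libraries overlapped.

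ENSRNOT00000009392 (fold 3.51) was the most abundant and made up 47.9% of the CD8 sum in CD8 T cells. Its lowest, median and highest CPM were 62.1, 182 and 268 in CD8 T cells, 22.4, 39.2 and 48.3 in CD4 T cells and 38.9, 48.4 and 64.0 in monocytes, the next type. The lowest CD8 T value thus fell below the highest monocyte value. Without this transcript the sum of the remaining CD8 transcripts still had a median of 200.2 CPM in CD8 T cells against 74.0 CPM in CD4 T cells (61.9 to 90.1). In B cells that median was 56.8 CPM (53.8 to 69.3) and in NK cells 59.4 CPM (52.9 to 67.7). The CD4 T median was thus the higher of these without the most abundant transcript, but the ranges overlapped.

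Complete separation of the libraries was found for a minority of transcripts. All 6 CD4 T libraries lay above all 6 CD8 T libraries for 17 of 59 CD4 transcripts, and among the 512 transcripts that were highest in CD4 T cells within the liver and level limits this held for 4.49%. All 6 CD8 T libraries lay above all 6 CD4 T libraries for 5 of 20 CD8 transcripts, against 3.55% of the 282 in CD8 T cells. The rule used these libraries, so nothing is read from the excess. Above all 30 other sorted libraries lay 8 CD4 transcripts, against 9 of the 512 (1.76%), and 3 CD8 transcripts, against 3 of the 282 (1.06%). The 3 CD8 transcripts were ENSRNOT00000008269, ENSRNOT00000003248 and ENSRNOT00000044158, named after their values were seen. With replicate 5 of both T cell types set aside, the libraries separated for 26 CD4 and 10 CD8 transcripts, with shares of 7.42% and 9.93% in the wider sets. CD4 T and CD8 T libraries of the same number deviated together in part (r −0.03 to 0.59, with 5 of 6 closest to their own number), which falls short of a pairing in every number. Taken number by number, CD4 T lay above CD8 T in all 6 pairs for 37 of the 59 CD4 transcripts, against 19.9% of the 512, and CD8 T above CD4 T for 10 of the 20 CD8 transcripts, against 13.1% of the 282.

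Membership depended on single libraries more in the CD8 than in the CD4 set. Leaving out each T cell library in turn, 44 of 59 CD4 transcripts and 9 of 20 CD8 transcripts met the rule every time. Without CD8 T replicate 5 alone, the rule gave 37 CD8 transcripts, of which 19 were among the 20. Without replicate 5 of every sorted type it gave 60 CD4 and 30 CD8 transcripts, of which 54 and 18 were among the original sets.

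The rule was also applied to 5 replicate numbers and the outcome read in the number left out. Chosen without replicate 1, 50 of 61 CD4 transcripts were highest in CD4 T replicate 1 among the 6 left-out libraries, and for replicates 2 to 6 the counts were 45 of 63, 51 of 63, 48 of 68, 36 of 60 and 54 of 70. Of the transcripts that were highest in CD4 T cells within the liver and level limits but missed the fold limit, 34.5% to 61.4% were highest in the left-out CD4 T library. For the CD8 transcripts the counts were 14 of 26, 13 of 22, 16 of 26, 12 of 21, 12 of 30 and 22 of 31, against 20.1% to 45.8% of the transcripts highest in CD8 T cells that missed the fold limit. The lowest share in both sets was that of replicate 5, at 60.0% and 40.0%. These shares are a description, since the lists differ with each number left out and libraries of a number may share an animal or a day.

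**Figure D4:**
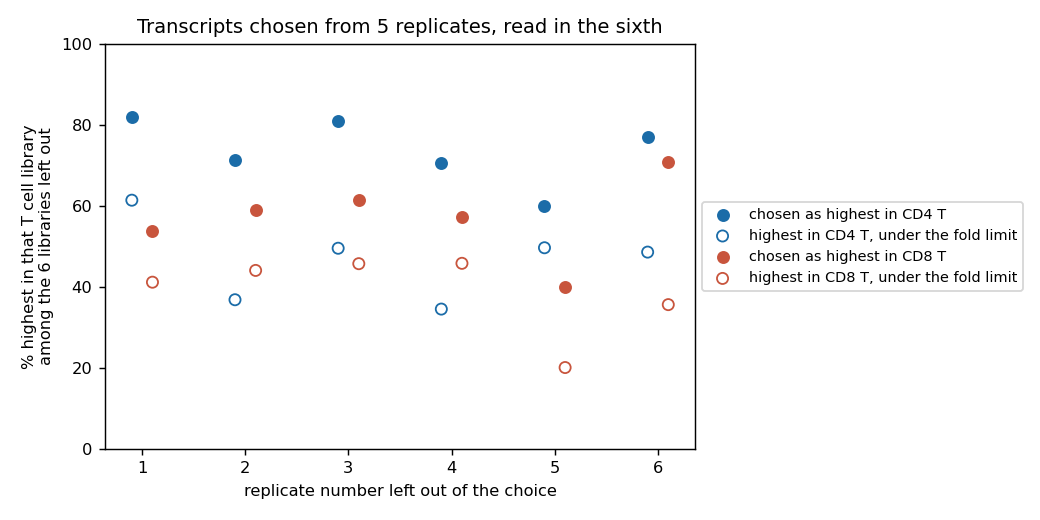
For each replicate number left out of the choice (x axis), filled points give the percentage of chosen transcripts that were highest in that T cell type among the 6 left-out libraries (y axis), and open points the percentage for transcripts highest in the same T cell type that missed the fold limit. The CD4 set (blue) ran from 60.0% to 82.0% and the CD8 set (red) from 40.0% to 71.0%, both lowest for replicate 5, and the open points from 34.5% to 61.4% and from 20.1% to 45.8%.

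Spleen and WBC held both sets at levels below the sorted T cells. No transcript exceeded its own T cell mean in either, and the spleen mean was a median of 37.1% of that level for the CD4 transcripts (0% to 75.2%) and 39.1% for the CD8 transcripts (0% to 72.0%). In WBC the medians were 36.3% and 30.4%. In such mixed samples, fewer cells of a type and less RNA per cell cannot be told apart. The CD4 sum was 349, 323, 301, 346 and 380 CPM in the spleens and 383, 328, 338, 358 and 327 CPM in WBC, which overlap. The CD8 sum was 131, 160, 113, 148 and 183 CPM in the spleens and 124, 119, 105, 130 and 128 CPM in WBC, overlapping as well. The ratio of the CD4 sum, of 59 transcripts, to the CD8 sum, of 20, was 2.02 to 2.67 in the spleens and 2.55 to 3.22 in WBC. Sorted cells gated apart from T cells had similar ratios. They were 2.28 to 3.71 in B cells, 2.13 to 3.22 in NK cells, 2.67 to 4.06 in neutrophils and 1.57 to 2.84 in monocytes. The ratio is therefore not read as a balance of CD4 T and CD8 T cells.

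Between spleen and WBC most transcripts of both sets passed no test. Of 13885 transcripts that averaged 1 CPM or more, 46.6% differed in edgeR's quasi-likelihood test with Benjamini-Hochberg adjustment (threshold 0.05), 22.7% higher and 23.9% lower in spleen. Of the 59 CD4 transcripts, 47 were tested, of which 4 were higher, 9 lower and 34 not called (27.7% called). Of the 20 CD8 transcripts, 15 were tested, of which 3 were higher, 0 lower and 12 not called (20% called). Both shares were below that of all transcripts, but the levels were not matched, so nothing is read from this. With a filter of 5 CPM, 2 of the 16 CD4 transcripts tested were higher and 6 lower. Of the 4 CD8 transcripts tested then, 0 were called. The median log2 fold change, spleen minus WBC, was −0.30 in the CD4 set and 0.27 in the CD8 set, against 0.02 over all transcripts tested. Whether the sets differ was not tested.

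The CD4 counts depended on the scaling. With column totals in place of TMM the median of all transcripts rose to 0.18, and 6 CD4 transcripts were higher and 6 lower, with a median of −0.14. The share of higher calls over all transcripts was then 70.5%, against 48.8% with TMM. The CD8 counts stayed at 3 and 0, with a median of 0.41.

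ENSRNOT00000001162, one of the 8 CD4 transcripts above all other sorted libraries, had the lowest fold change among called transcripts whose groups did not overlap. It was at 13.9, 13.2, 13.3, 15.6 and 18.4 CPM in the spleens and 41.3, 34.8, 35.5, 37.0 and 33.3 CPM in WBC. Every WBC sample lay above every spleen, and also above the neutrophil (at most 19.6 CPM) and monocyte libraries (at most 16.1 CPM) (log2 fold change −1.45, edgeR adjusted p = 1.4e-05). ENSRNOT00000071593, the other such CD4 transcript, was at 8.13, 7.80, 6.86, 8.53 and 9.43 CPM in the spleens and 10.6, 12.5, 11.7, 9.92 and 10.6 CPM in WBC (log2 fold change −0.60, edgeR adjusted p = 0.00102). All 5 samples of one group lay below all 5 of the other for these 2 CD4 and 0 CD8 transcripts, against 10.2% of all tested.

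In the other direction, ENSRNOT00000023546 had the highest fold change among called transcripts whose groups did not overlap, and it is a CD8 transcript. It was at 6.93, 9.73, 6.28, 8.14 and 7.15 CPM in the spleens and 3.06, 1.69, 0.521, 1.08 and 4.06 CPM in WBC (log2 fold change 1.68, edgeR adjusted p = 0.00838). Its median was 13.3 CPM in CD8 T cells, 6.05 CPM in CD4 T cells and 5.44 CPM in NK cells, but 0.847 CPM in neutrophils and 1.01 CPM in monocytes. The CD4 transcript ENSRNOT00000025743 had medians of 6.48 CPM in CD4 T cells, 1.02 CPM in neutrophils and 0.595 CPM in monocytes. It was at 3.96, 5.73, 4.13, 5.41 and 3.81 CPM in the spleens and 0.854, 0.980, 1.69, 1.27 and 2.10 CPM in WBC (log2 fold change 1.57, edgeR adjusted p = 0.000359). Spleens lay wholly above WBC for 6 CD4 and 4 CD8 transcripts, against 27.3% of all tested.

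**Figure D5:**
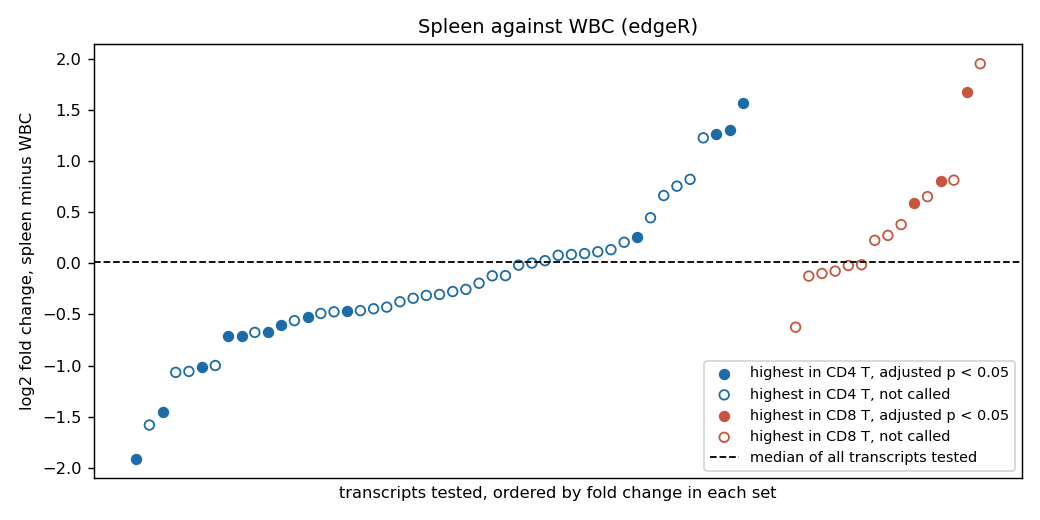
Each point is a tested transcript (47 CD4 in blue, 15 CD8 in red, ordered by fold change along x), with the log2 fold change of spleen minus WBC on the y axis, filled where the edgeR adjusted p-value was under 0.05. The dashed line is the median of all transcripts tested, 0.02, and the CD4 set has 9 filled points below and 4 above it, the CD8 set 3 above it.

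The livers held little of either set, as the liver limit required. The CD4 sum was 8.12, 11.8, 9.81, 6.40 and 8.87 CPM in Ctrl livers, 9.91, 10.2, 12.9, 5.87 and 11.6 CPM after APAP and 7.23, 9.95, 13.3, 9.47 and 8.77 CPM after MDA, and the 3 groups overlapped. The CD8 sum was 0.646, 0.478, 0.570, 1.30 and 3.67 CPM in Ctrl livers, 7.19, 5.84, 2.92, 2.09 and 4.76 CPM after APAP and 1.97, 1.93, 2.05, 3.33 and 3.10 CPM after MDA. Ctrl replicate 5 lay among the treated livers and the other 4 below them all, but sparse transcripts carried much of these sums. ENSRNOT00000047613, at 0 in 4 of 6 CD8 T libraries, gave 2.28 CPM in Ctrl replicate 5 and 3.09 CPM in APAP replicate 1 and was at 0 in the other livers. ENSRNOT00000093704 gave 2.63, 3.93 and 1.29 CPM in APAP replicates 2 and 5 and MDA replicate 4. Neither was called, and both are given here after their values were seen. Without the former, Ctrl replicate 5 was at 1.39 CPM, below every treated liver, and without both APAP replicate 5 was at 0.828 CPM, below it. At 0 in all 15 livers were 18 CD4 and 4 CD8 transcripts, and 2 of each were above 0 in all 15.

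After APAP, 0 of 23 CD4 transcripts that averaged 0.1 CPM or more in the livers were called by edgeR, against 31.5% of 18427 transcripts tested (16.1% higher, 15.4% lower). Unadjusted p-values under 0.05 numbered 4, and DESeq2 called 1 higher and 1 lower. After MDA the count was again 0 of 23, against 16.1% of all (7.99% higher, 8.07% lower), with 0 at an unadjusted p under 0.05 and 0 by DESeq2. Both treatments were compared with the same Ctrl livers. The CD4 transcripts averaged under 1 CPM in the livers by the rule, whereas the transcripts tested had no upper limit. The shares called are therefore not at a like level. The medians of the fitted log2 fold changes were −0.71 after APAP and −0.44 after MDA, against 0.06 and 0.02 over all transcripts. With transcripts at or under 3 estimated counts in 1 group set to that floor, the medians were −0.57 and −0.44. These are over 21 of the 23, as transcripts under the floor in both groups dropped out. Folds set by the floor came from CPM without TMM, so the floored medians are not on the scale of the fitted ones. The fitted MDA median ran from −0.72 without MDA replicate 4 to −0.18 without Ctrl replicate 1, with −0.20 without Ctrl replicate 5 and −0.21 without Ctrl replicate 4. With limma the medians were 0 after APAP and 0.03 after MDA. That fit used log2(CPM + 1), where the added 1 draws differences under 1 CPM towards 0, so its medians are on another scale. For 30 of the 59 CD4 transcripts after APAP and 33 after MDA, both groups were at or under the floor in every liver, where a difference was not detectable at this depth. With column totals in place of TMM the median of all transcripts was 0.73 after APAP and 0.54 after MDA, the CD4 medians were −0.09 and −0.02, and 1 CD4 transcript was called higher after APAP. Higher calls then made up 88.3% of all calls after APAP and 90.3% after MDA, against 51.1% and 49.7% with TMM.

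ENSRNOT00000039580 came nearest to a call in the CD4 set and was picked out after its values were seen. It was at 0.350, 0, 0.186, 0.207 and 0 CPM in Ctrl livers and 1.39, 1.11, 1.46, 0.424 and 1.27 CPM after APAP. All 5 APAP livers lay above all 5 Ctrl livers, which held for 31.8% of all transcripts tested, and the edgeR adjusted p-value was 0.0522 (log2 fold change 2.21). After MDA it was at 0.199, 0.206, 0.181, 0.440 and 0.522 CPM, overlapping with Ctrl (edgeR adjusted p = 0.773).

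Of the 9 CD8 transcripts tested in the livers, 1 was called higher after both treatments, ENSRNOT00000003248, named because it was the only call. It was at 0, 0, 0, 0.129 and 0 CPM in Ctrl livers and 0.493, 0.551, 0.899, 0.933 and 0 CPM after APAP (edgeR adjusted p = 0.0135). After MDA it was at 0.124, 1.06, 1.02, 1.22 and 0.765 CPM (edgeR adjusted p = 0.00903). Its mean was 0.0259 CPM in Ctrl livers, 0.575 CPM after APAP and 0.838 CPM after MDA. It thus passed the filter of 0.1 CPM only through the treated livers in which it was called higher, and both calls share the Ctrl livers. The calls are therefore given as a description. Above the highest Ctrl liver lay 4 of 5 APAP and 4 of 5 MDA livers, and the groups overlapped through APAP replicate 5 and MDA replicate 1. The highest Ctrl liver held 1.48 estimated counts and the highest treated liver 14.1, so no fold is given.

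In the sorted cells ENSRNOT00000003248 had a lowest, median and highest CPM of 5.66, 12.2 and 17.9 in CD8 T cells. Medians in the other types ran from 1.80 CPM in CD4 T cells to 2.57 CPM in B cells, with neutrophils at 2.13 CPM and monocytes at 1.95 CPM. Every CD8 T library lay above the other sorted libraries, but no type was at 0. In the spleens it had a median of 4.12 CPM and in WBC of 3.82 CPM, with no call between them (log2 fold change −0.10, edgeR adjusted p = 0.711).

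The remaining 8 tested CD8 transcripts were not called in either liver comparison. The medians of the fitted log2 fold changes over the 9 were 1.01 after APAP and −0.56 after MDA. With the floor in place they were 0.50 over 7 transcripts and −0.40 over 6, as those under it in both groups dropped out. Folds set by the floor came from CPM without TMM, so the floored medians are not on the scale of the fitted ones. The fitted medians were not stable: without Ctrl replicate 5 they were 3.59 and 0, and with only the groups compared in the fit the MDA median was 1.53. Without APAP replicate 2 the APAP median was 0.67, and leaving out other single livers gave −0.78 to −0.18 after MDA. Of the 20 CD8 transcripts, 10 after APAP and 11 after MDA were at or under the floor in both groups. The share called was 11.1% in each comparison, a single transcript of 9, against 31.5% and 16.1% of all transcripts, which were not held under 1 CPM. Treated livers lay wholly below Ctrl for 0 tested transcripts of both sets, against 3.7% of all after APAP and 2.41% after MDA, and wholly above it after MDA for 0, against 22.2%.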

How the data were processed

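RNA of 61 samples was sequenced as paired-end libraries (NEBNext Ultra II Directional). After read trimming by the authors, Salmon 1.6.0 estimated transcript abundance on Ensembl Rnor_6.0 cDNA, correcting for GC content and sequence bias, and tximport collected the result in R 4.1.3. The submitters' processing notes also list the build mRatBN7.2. The methods name TPM, but the deposited totals differ between samples, and the values were used as estimated counts, that is, expected counts on the scale of the library, of which 0% are whole. Among 1938 sparse transcripts the smallest values above 0 ran from 0.227 to 3.72 (5th to 95th percentile), while within a transcript the next value was a median of 1.06 times the smallest. The worth of 1 read therefore differed between transcripts, and estimated counts are not reads.

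All 61 columns were assigned by name, with 0 unassigned. The values were scaled to CPM, and the 79 transcripts and all lists were chosen with earlier results of these data known. edgeR 4.0.16 (quasi-likelihood test, TMM, Benjamini-Hochberg over all transcripts tested, threshold 0.05) was run in R 4.3.3 on values rounded to whole numbers, for transcripts averaging 1 CPM or more (spleen, WBC) or 0.1 CPM or more (15 livers in 1 fit). A limit of 1 CPM in the livers would have left no transcript of either set. DESeq2 1.42.0, limma 3.58.1, other filters and scalings, and each replicate left out were alternatives. The edgeR step was tested on simulated data.

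Because identifiers were not paired with gene names, the marker and pathway lists could not be followed. Named transcripts were the 2 with the largest fold in each set and, in each tested comparison, the 2 highest and 2 lowest fold changes with an adjusted p-value under 0.05 and groups that did not overlap. Others are marked as chosen after their values were seen. The labels do not say that replicates came from separate animals, so p-values measure the spread between these samples only. Counting intervals were not computed, since estimated counts are not reads.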

Additional observations from a re-analysis of the deposited data

Results flagged for a closer look

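In 132 groups of 5 or 6 samples, single samples were compared with the rest of their group. By Dixon's criterion at the 95% level, where chance gives about 1 in 20, 9 stood apart. A group with a single sample above 0 always meets the criterion, as with the liver values of single transcripts below, so that chance does not apply to them. The summed CD8 transcripts reached 3.67 CPM in Ctrl liver replicate 5, where the next highest Ctrl liver had 1.30 CPM. ENSRNOT00000067597 was at 1.46 CPM in Ctrl liver replicate 1 and at 0 in the others. ENSRNOT00000025743 was above 0 in a single liver of each group, at 0.0528 CPM in Ctrl replicate 1, 0.128 CPM in APAP replicate 3 and 0.0664 CPM in MDA replicate 4. ENSRNOT00000003248 was at 0.129 CPM in Ctrl liver replicate 4, the single Ctrl liver above 0, at 4.89 CPM in B cell replicate 4, where the next highest had 2.69 CPM, and at 2.96 CPM in monocyte replicate 5, where the next highest had 2.06 CPM. ENSRNOT00000071593 was at 12.7 CPM in NK replicate 5, where the next highest NK library had 8.46 CPM.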

How the results depend on the processing

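The number of transcripts depended on the choice more in the CD8 than in the CD4 set. Without the liver limit there were 90 CD4 and 36 CD8 transcripts, and with 0.1 CPM added in the fold 39 CD8 transcripts. Leaving out libraries or replicate numbers gave 59 to 77 CD4 and 18 to 37 CD8 transcripts, with 37 without CD8 T replicate 5 and 31 without replicate 6. TMM-scaled totals, medians and a minimum of 5 CPM kept both counts within 1.5 times.

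Between spleen and WBC, limma gave 7 CD4 transcripts higher and 7 lower. The stricter filter of 5 CPM gave 2 CD4 higher and 6 lower, and 0 CD8 in either direction, with fewer tested (16 and 4). Replicate numbers of spleen and WBC did not deviate together (r −0.006 to 0.030, 0 of 5 closest to their own number), so they share a number only; with the replicate as a block, 2 CD4 transcripts were higher and 5 lower, and 3 CD8 higher. Leaving out single samples gave 3 to 5 CD4 higher, 5 to 9 lower (5 without spleen replicate 3 or WBC replicate 4) and 3 to 4 CD8 higher. The named transcripts kept their direction and call in every alternative that tested them.

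After APAP, 1 CD4 transcript was higher without TMM, with DESeq2, with limma and with the stricter filter of 0.5 CPM, and 1 was lower with DESeq2; leaving out single livers gave 0 to 1 in each direction. Of the CD8 transcripts, 2 were higher after APAP without TMM, and 0 after either treatment with the stricter filter, which tested 1. Leaving out single livers gave 1 to 2 higher after either treatment, 2 without Ctrl replicate 5. With transcripts chosen without sorted replicate 5, an alternative added after seeing the data, 1 CD8 transcript was lower after each treatment. Over all transcripts, calls after APAP numbered 5801, and 8976 without TMM and 9412 with limma; after MDA they numbered 2959, and 6449 and 6682. The block changed no liver count of either set. The causes were not tested. Between 10 and 11 of 20 CD8 and 30 and 33 of 59 CD4 transcripts were at or under the floor in both liver groups of a comparison, where depth limits detection.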
